A study of Mus musculus with 66 samples.

Results

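The Paf1 complex (Paf1C) is carried along genes by elongating RNA polymerase II and has 6 subunits in mammals, encoded in the mouse by Paf1, Cdc73, Ctr9, Leo1, Rtf1 and Wdr61. Wdr61 encodes the protein called Ski8 in the sample labels, which is also part of the cytoplasmic Ski complex. These 6 genes were taken by symbol from the table of polyadenylation (pA) site reads and the table of RNA-seq gene reads, and the question asked here was how the message of each subunit and its pA sites behaved when another subunit was depleted. All 6 genes were in the pA site table, with 31 of its 59578 sites. In the RNA-seq table, 4 of them were among its 9999 genes (Paf1, Cdc73, Ctr9 and Wdr61), while Leo1 and Rtf1 were analysed here by 3'READS alone.

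The cells were C2C12, an immortalised mouse myoblast line that can fuse into myotubes, kept as growing myoblasts and transfected with 50 nM siRNA for 48 h. The control group received a nonspecific siRNA (siCtrl) and the other groups an siRNA against Paf1 (siPaf1), Cdc73 (siCdc73) or Ski8 (siSki8); per the study's methods each target had 1 siRNA sequence. Each of RNA-seq and 3'READS, which sequences the 3' ends of polyadenylated RNA, had 2 libraries of siCtrl, siPaf1 and siCdc73, from batches that the labels number 1 and 2, and 1 library of siSki8, from batch 2. Nothing in the labels describes the batches as separate cultures, so the p-values measure the spread between these libraries, which may be technical.

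The RNA-seq libraries held between 2796693 (siPaf1, batch 2) and 8160386 (siSki8) reads in genes, and the 3'READS libraries between 5302728 (siCdc73, batch 1) and 14340927 (siCdc73, batch 2) reads at pA sites. Myoblast markers were high, with 4 of 6 listed in RNA-seq and their summed level between 16660 and 37810 CPM (counts per 1000000 reads, after scaling by the trimmed mean of M values), most of it Vim. Myod1, a defining myoblast gene, was not listed in RNA-seq and was at or below 0.53 CPM in 3'READS. Myotube markers, of which 3 of 6 were listed in RNA-seq, summed to between 15.4 and 30.6 CPM in batch 1 and between 108.5 and 186.3 in batch 2. Of 3 markers of other cell types, 2 were listed in RNA-seq, Epcam and Ptprc, and summed to at most 1.86 CPM there in any library. The myotube sum was also higher in siPaf1 than in siCtrl of the same batch, at 30.6 against 15.4 and 186.3 against 108.5 CPM in RNA-seq. In 3'READS it was 182 against 112 and 446 against 241 CPM. In RNA-seq siCdc73 (17.8 and 177.1 CPM) and siSki8 (127.9) were above siCtrl of the same batch as well. In 3'READS siCdc73 was lower in batch 1 (72.1 CPM) and higher in batch 2 (269.5), and siSki8 was lower (229). Cdh15, a cadherin of myoblasts, was at 790 and 1015 CPM in siCtrl, 351 and 626 in siPaf1, 321 and 401 in siCdc73 and 967 in siSki8 in RNA-seq. The part of these marker differences in the results below was not tested.

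Paf1C helps the polymerase through chromatin and is needed for the ubiquitination of histone H2B that the ligase Rnf20 and Rnf40 lays down on transcribed genes. Paf1, Ctr9 and Cdc73 form the core that binds the polymerase, Leo1 sits with Paf1, Ctr9 is a scaffold of tetratricopeptide repeats, Ski8 is a WD-repeat protein at the edge of the complex, and Rtf1, which carries the domain that stimulates H2B ubiquitination, is loosely held in mammals. On mm9 the genes lie at chr7:29177970-29184407 (Paf1, plus strand), chr1:145445927-145550023 (Cdc73, minus), chr7:118172465-118199891 (Ctr9, plus), chr9:75289331-75314239 (Leo1, plus), chr2:119500804-119561143 (Rtf1, plus) and chr9:54562542-54595757 (Wdr61, minus). The proteins differ in size, with 535 amino acids in Paf1, 531 in Cdc73, 1173 in Ctr9, 667 in Leo1, 715 in Rtf1 and 305 in Wdr61 in the coding transcript used for each gene (GENCODE, mm9).

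In siCtrl cells the 4 subunits measured by RNA-seq lay close together. Per length of coding region, as reads per kilobase and 1000000 mapped reads (RPKM), Paf1 was at 26.7 in batch 1 and 37.8 in batch 2, Cdc73 at 27.5 and 23.5, Ctr9 at 19.7 and 22.9, and Wdr61 at 21.8 and 53.6. Ctr9 was below Paf1 and Cdc73 in both libraries, while the ranges of the other pairs of subunits overlapped. Wdr61 differed most between batches, and every comparison with it below carries that spread. At pA sites, where a transcript gives 1 read whatever its length, the order was another. Here Ctr9 had 226 and 116 CPM in the siCtrl libraries, Rtf1 28.7 and 36.9, Paf1 19.5 and 16.8, Wdr61 7.20 and 20.7, Cdc73 6.45 and 10.1, and Leo1 4.80 and 10.1. Ctr9 therefore had the lowest RPKM of 4 subunits and the highest 3'READS level of 6. Rtf1 stood above Paf1 and Paf1 above Cdc73 and Leo1 in both libraries, but the range of Wdr61 overlapped those of Paf1, Cdc73 and Leo1.

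**Figure D1:**
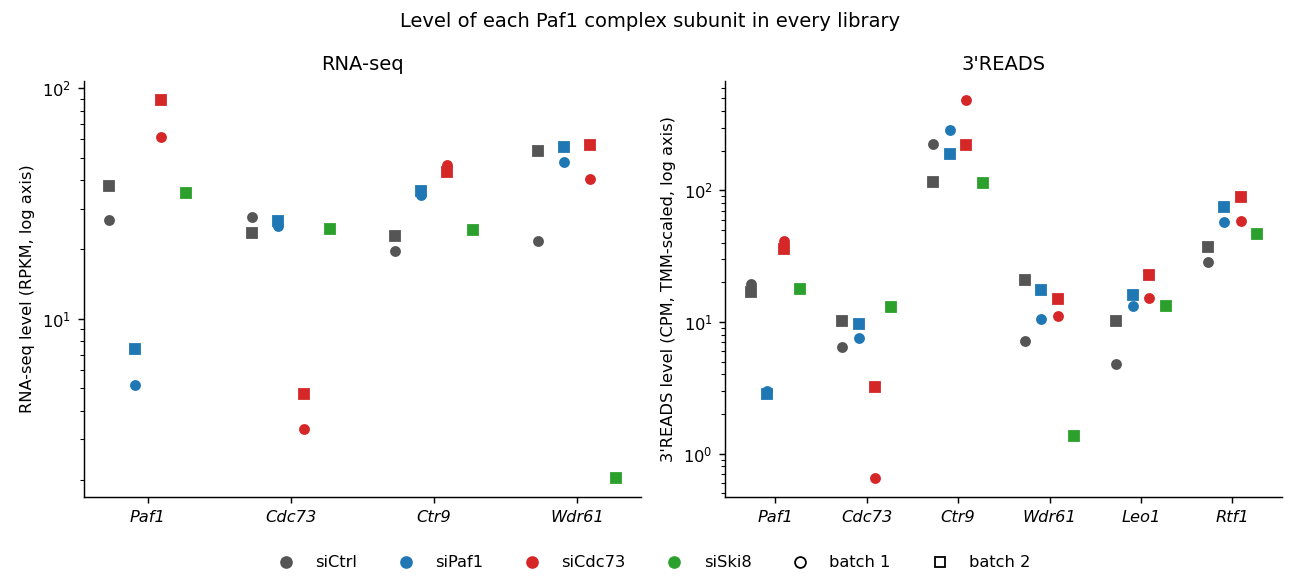
Level of each subunit in every library, as RPKM in RNA-seq (left) and CPM in 3'READS (right), both on log axes, with groups by colour and batches by marker. Each targeted gene is lowest under its own siRNA, and in RNA-seq Paf1 (61.5 and 89.0 RPKM) and Ctr9 (46.5 and 43.2 RPKM) are highest in the siCdc73 libraries.

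The targeted gene was lower under its own siRNA in both assays. Paf1, the subunit that names the complex, fell from 26.7 and 37.8 RPKM in siCtrl to 5.18 and 7.41 in siPaf1, and in 3'READS from 19.5 and 16.8 to 2.97 and 2.84 CPM. Cdc73, also called parafibromin and a tumour suppressor, fell from 27.5 and 23.5 RPKM to 3.34 and 4.72 in siCdc73, and in 3'READS from 6.45 and 10.1 to 0.651 and 3.19 CPM. The siCdc73 library of batch 1 had only 3 Cdc73 reads at pA sites against 45 in batch 2. Wdr61 was at 2.04 RPKM and 1.37 CPM in the siSki8 libraries against 21.8 and 53.6 RPKM and 7.20 and 20.7 CPM in siCtrl. No library of the targeted group overlapped siCtrl in any of these comparisons. Groups this small can lie apart by chance. The share of all genes or sites that do so was not computed, here or below. With batch as a term in edgeR's quasi-likelihood test and Benjamini-Hochberg adjustment over all genes, the RNA-seq changes were -2.38 ± 0.25 (log2, SE; adjusted p = 2.35e-08) for Paf1, -2.56 ± 0.27 (adjusted p = 1.99e-08) for Cdc73 and -4.16 ± 0.42 (adjusted p = 1.09e-07) for Wdr61. With 1 siSki8 library per assay, every SE and p-value for siSki8, here and below, assumes that it varies like the other groups. The 3'READS changes were -2.63 ± 0.33 (adjusted p = 9.91e-05), -2.06 ± 0.47 (adjusted p = 0.00584) and -3.65 ± 0.58 (adjusted p = 0.0275).

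Most calls with edgeR depended on the batch term. Without it, as the study's methods name no batch term, edgeR called 0 of 4 subunits in RNA-seq after siPaf1, siCdc73 or siSki8, where it also called 0% of the 6521 genes tested in each comparison, and 0 of 6 in 3'READS, where it called 0% of 12579 genes. At an unadjusted p under 0.05 the same test counted 1, 3 and 1 subunits in RNA-seq, against 1156, 1377 and 361 of the 6521 genes. In 3'READS it counted 2, 4 and 1, against 1703, 1929 and 419 of the 12579 genes. DESeq2 without the batch term called 1, 3 and 1 in RNA-seq and 1, 0 and 0 in 3'READS. With the batch term edgeR called 2 of 4 subunits in RNA-seq after siPaf1, against 32.5% of all genes, 3 of 4 after siCdc73, against 39.9%, and 1 of 4 after siSki8, against 5.41%. In 3'READS it called 3 of 6 after siPaf1, against 18.8% of all genes, 5 of 6 after siCdc73, against 22.5%, and 1 of 6 after siSki8, against 0.151%. Each of these counts includes the targeted gene itself. All adjusted p-values below come from edgeR with the batch term unless stated.

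After siCdc73 the measured subunits other than Cdc73 and Wdr61 were called higher, Ctr9 and Paf1 in both assays and Leo1 and Rtf1 in 3'READS. Paf1 rose from 26.7 and 37.8 RPKM in siCtrl to 61.5 and 89.0 in siCdc73, and from 19.5 and 16.8 to 41.0 and 35.8 CPM at pA sites. The groups did not overlap in either assay. The log2 change was 1.35 ± 0.23 in RNA-seq (adjusted p = 2.88e-05, without the batch term 0.142) and 1.08 ± 0.29 in 3'READS (adjusted p = 0.0154). Against the siCtrl library of the same batch, the log2 ratio was 1.30 (first batch) and 1.39 (second) in RNA-seq, and 1.07 and 1.08 in 3'READS.

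Ctr9 was at 19.7 and 22.9 RPKM in siCtrl, 34.5 and 35.7 in siPaf1, 46.5 and 43.2 in siCdc73 and 24.3 in siSki8. As RPKM the 3 groups with 2 libraries did not overlap, and siSki8 lay nearest to siCtrl. In CPM, the scale of the tests, siSki8 at 273 was nearer to siPaf1 (296 and 328) than to siCtrl (172 and 211). The log2 change was 1.21 ± 0.23 after siCdc73 (adjusted p = 8.52e-05) and 0.71 ± 0.22 after siPaf1 (adjusted p = 0.0155). At pA sites Ctr9 had 226 and 116 CPM in siCtrl, 288 and 189 in siPaf1, 487 and 222 in siCdc73 and 113 in siSki8, so that siCtrl of batch 1 was above the siCdc73 library of batch 2 and the groups overlapped unless read within batch. Within batches the siCdc73 ratio was 1.11 and 0.94 on the log2 scale (1.03 ± 0.27, adjusted p = 0.0134) and the siPaf1 ratio 0.35 and 0.71 (0.53 ± 0.27, adjusted p = 0.181, not called).

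Leo1 and Rtf1, the subunits without an RNA-seq value here, were both higher after siPaf1 and siCdc73 in 3'READS. Leo1, which interacts with Paf1, had 4.80 and 10.1 CPM in siCtrl, 13.2 and 16.1 in siPaf1, 15.2 and 22.7 in siCdc73 and 13.2 in siSki8. All 5 knockdown libraries lay above both siCtrl libraries, and the siCtrl library of batch 1 rested on 32 reads. The log2 change was 1.02 ± 0.34 after siPaf1 (adjusted p = 0.0469), 1.37 ± 0.34 after siCdc73 (adjusted p = 0.00947) and 0.57 ± 0.42 after siSki8 (adjusted p = 0.679, not called). Rtf1 had 28.7 and 36.9 CPM in siCtrl, 57.0 and 75.3 in siPaf1, 58.6 and 89.6 in siCdc73 and 46.6 in siSki8, again with no overlap between siCtrl and the others. Its log2 change was 1.01 ± 0.27 after siPaf1 (adjusted p = 0.0173), 1.16 ± 0.27 after siCdc73 (adjusted p = 0.00678) and 0.29 ± 0.35 after siSki8 (adjusted p = 0.827, not called). Over the 7 libraries, which share the knockdowns and the batches, Pearson's r of log2 CPM between Leo1 and Rtf1 was 0.94.

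**Figure D2:**
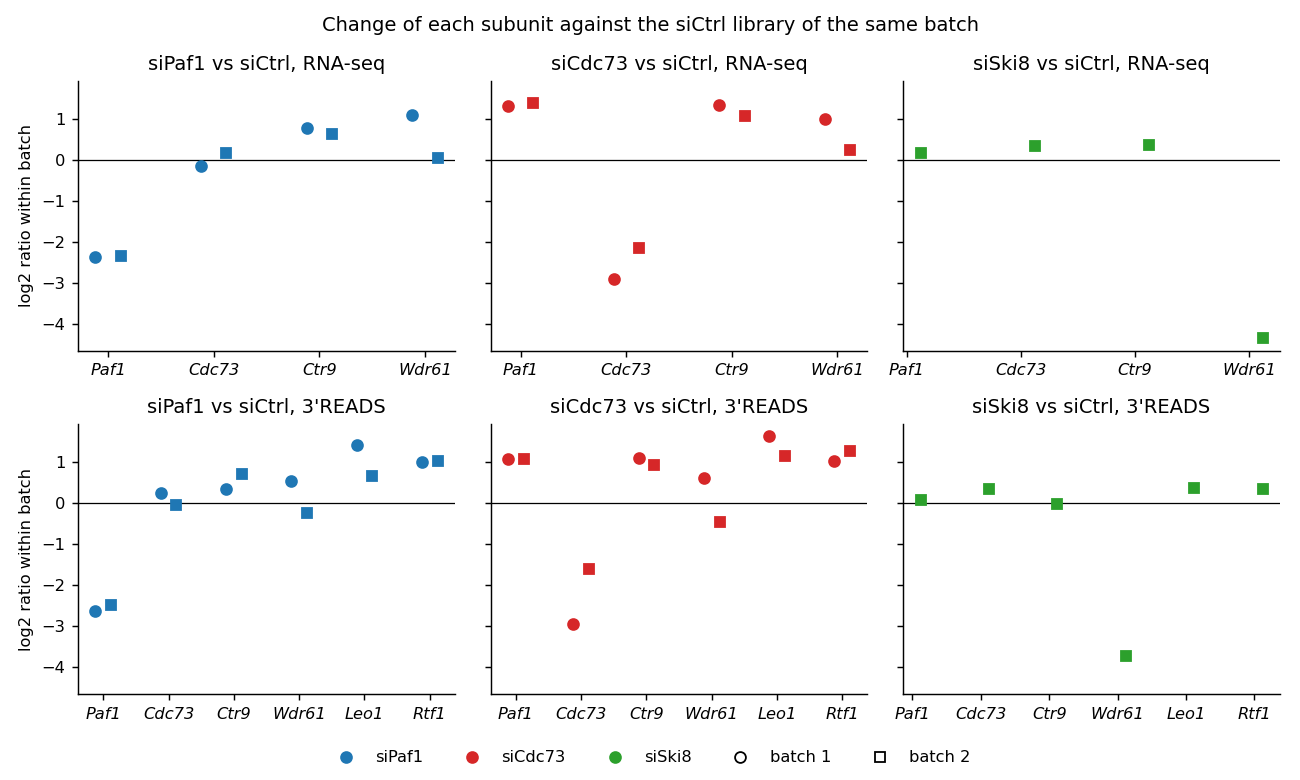
Log2 ratio of each subunit to the siCtrl library of the same batch, for each knockdown (columns) in RNA-seq (top) and 3'READS (bottom). Apart from the targeted gene and Wdr61, all ratios after siCdc73 are above 0 in both batches, between 0.94 and 1.62, while Wdr61 in 3'READS differs in sign between batches.

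No change in Cdc73 was detected after siPaf1. It had 25.4 and 26.6 RPKM in siPaf1 against 27.5 and 23.5 in siCtrl, a log2 change of 0.00 ± 0.25 (adjusted p = 1), and 7.62 and 9.72 CPM at pA sites against 6.45 and 10.1 (0.10 ± 0.42, adjusted p = 0.897). The siPaf1 values lay inside the range of siCtrl as RPKM in RNA-seq and as CPM in 3'READS. Wdr61 was not called after siPaf1 or siCdc73. In RNA-seq it had 47.7 and 55.4 RPKM in siPaf1 and 40.3 and 56.5 in siCdc73, and its within-batch log2 ratios were 1.09 and 0.04 after siPaf1 and 0.99 and 0.23 after siCdc73. The batch 1 ratios rest on the low siCtrl value of that batch (adjusted p = 0.0986 and 0.0700). After siSki8 the other subunits differed from siCtrl by at most 0.57 on the log2 scale in either assay, and none was called.

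The knockdowns themselves were compared for the subunits that neither siRNA targeted. For Ctr9 in RNA-seq, siCdc73 was above siSki8 by 0.77 ± 0.29 (adjusted p = 0.0474) and above siPaf1 by 0.50 ± 0.22 (adjusted p = 0.0887, not called). For Paf1, siCdc73 was above siSki8 by 1.20 ± 0.31 in RNA-seq (adjusted p = 0.00384) and by 1.02 ± 0.39 in 3'READS (adjusted p = 0.107, not called). For Rtf1 and Leo1 the difference of siCdc73 from siSki8 was 0.87 ± 0.35 and 0.80 ± 0.43 (adjusted p = 0.129 and 0.256), and the difference of siCdc73 from siPaf1 was 0.15 ± 0.27 and 0.35 ± 0.33 (adjusted p = 0.748 and 0.510). The calls of all subunits, targeted genes included, were 2, 4 and 2 of 4 in RNA-seq for siCdc73 against siPaf1, siCdc73 against siSki8 and siPaf1 against siSki8, where 28.2%, 28.6% and 28.5% of all genes were called, and 2, 2 and 2 of 6 in 3'READS, against 14.4%, 10.2% and 13.5%. Without the batch term 0 of these calls remained. At an unadjusted p under 0.05, 2 subunits were counted in each of the 6 comparisons, each time the targeted genes. Of all genes, in the same order, 859, 1060 and 1167 of 6521 were under 0.05 in RNA-seq. In 3'READS these were 1298, 1329 and 1373 of 12579. In each assay siSki8 had only 1 library.

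Each call rested on few libraries. With the batch term and each siCtrl, siPaf1 or siCdc73 library left out in turn, the RNA-seq calls of Paf1, Cdc73 and Ctr9 after siCdc73 held each time, with Ctr9 between 1.13 and 1.31 and Paf1 between 1.31 and 1.41. Without siCtrl of batch 2 or either siPaf1 library all 4 subunits were called after siCdc73, Wdr61 included. For siCdc73 against siSki8 the RNA-seq count fell from 4 to 3 without either siCtrl library or siCdc73 of batch 1, and to 2 without siCdc73 of batch 2. The RNA-seq call of Ctr9 after siPaf1 was lost without siCtrl of batch 1 (0.62, adjusted p = 0.183) or batch 2 (0.81, adjusted p = 0.0928). In 3'READS the calls of Leo1 and Rtf1 after siPaf1 were both lost without siCtrl of batch 1 (adjusted p = 0.340 and 0.0795) or of batch 2 (0.107 and 0.224), and that of Leo1 also without siPaf1 of batch 1 (0.157). After siCdc73 the 3'READS call of Rtf1 alone remained without siCtrl of batch 1, that of Leo1 alone without siCtrl of batch 2, those of Leo1 and Rtf1 without siCdc73 of batch 1, and that of Ctr9 alone without siCdc73 of batch 2. The call of Paf1 was lost in each of these 4 (adjusted p between 0.0958 and 0.153), with a log2 change between 1.04 and 1.11.

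The pA sites of the subunits were compared next. A cell can end a transcript at several places, and use of a site in an intron or an internal exon (CDS-APA) gives an mRNA without the rest of the coding region, while use of an upstream site in the last exon (3'UTR-APA) shortens the 3'UTR only. Of the 31 sites, 30 were in the sense direction of the subunit and 1 was antisense upstream of Cdc73. Paf1 had 3 sense sites, Cdc73 13, Ctr9 2, Leo1 3, Rtf1 7 and Wdr61 2. Of the sense sites, 17 had at least 5% of their gene's reads and a second such site in the gene. They were tested as reads at the site against all other sense reads of the gene. Log2 changes of sites below are changes in this ratio, not in the share of reads. Without the batch term 0 of 17 were called after siPaf1, siCdc73 or siSki8, against 0.0179%, 0.0718% and 0% of the 16717 sites tested. At an unadjusted p under 0.05 that fit counted 4, 4 and 3 of the 17, against 1358, 1270 and 275 of the 16717. With the batch term 2 were called after siPaf1, 2 after siCdc73 and 2 after siSki8, against 8.49%, 7.12% and 0.108% of all sites. The calls lay in 2 genes, Rtf1 and Wdr61, and the 2 calls in Wdr61 are 1 change seen from both of its sites. Both calls after siSki8 were these sites of Wdr61, the gene that siSki8 targets.

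Rtf1, on the plus strand of chromosome 2 (mm9, 119500804 to 119561143), gave 2 of its sites more of its reads when Paf1 or Cdc73 was depleted. The first, at position 119527423, lies in intron 3 of a gene with 18 exons, 26619 bases after the annotated start, so a transcript that ends there lacks exons 4 to 18. It had 2 and 3 reads in siCtrl, 27 and 88 in siPaf1, 31 and 130 in siCdc73 and 10 in siSki8. As a share of Rtf1 reads this was 1.05% and 0.769% in siCtrl, 6.11% and 7.73% in siPaf1, 11.5% and 10.3% in siCdc73 and 2.44% in siSki8. The 95% Wilson interval of the higher siCtrl share, 0.288% to 3.74%, did not reach those of siPaf1 and siCdc73, whose lowest bound was 4.23%, and overlapped that of siSki8, 1.33% to 4.43%; such intervals cover counting error only. The log2 change in usage was 3.04 ± 0.72 after siPaf1 (adjusted p = 0.00104), 3.73 ± 0.71 after siCdc73 (adjusted p = 1.32e-05) and 1.45 ± 0.96 after siSki8 (adjusted p = 0.886, not called). Without the batch term the first of these had an adjusted p of 0.247 and the second of 0.150.

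The second Rtf1 site, at 119558782, is the first of 5 in the last exon, in the 3'UTR, 158 bases after the coding region. Use of it leaves the protein whole and the 3'UTR short, since the other last-exon sites lie between 781 and 2516 bases after the coding region. It had 11 and 27 reads in siCtrl, 72 and 401 in siPaf1, 73 and 339 in siCdc73 and 97 in siSki8, or 5.76% and 6.92%, 16.3% and 35.2%, 27.0% and 26.9%, and 23.7% of Rtf1 reads. Both siCtrl libraries were below all 5 knockdown libraries, siSki8 included. The log2 change was 2.32 ± 0.54 after siPaf1 (adjusted p = 0.000817), 2.45 ± 0.54 after siCdc73 (adjusted p = 0.000308) and 1.91 ± 0.67 after siSki8 (adjusted p = 0.371, not called). Between siSki8 and siCdc73 it differed by 0.54 ± 0.63 (adjusted p = 0.880), whereas the intron 3 site differed by 2.28 ± 0.76 (adjusted p = 0.0846, not called). Across all sites 2.34% were called for siCdc73 against siPaf1, 2.53% for siCdc73 against siSki8 and 3.88% for siPaf1 against siSki8. None of the 5 tested Rtf1 sites was among them.

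The sites are shown with the 30 bases that end at the cleavage position, on the plus strand of mm9, because the hexamers AATAAA and ATTAAA, which commonly direct cleavage, are absent from both sites that gained usage and present at the most used distal sites. Capitals mark the hexamer nearest the position, and the fourth site holds AATAAA upstream of it as well.
intron 3, chr2:119527394-119527423: ctggtgtaactgatgatttaatacccatta
last exon, first site, chr2:119558753-119558782: gtcattgtaatataaaccatttactgtata
last exon, the fourth site, chr2:119560579-119560608: ggctgtgtaataaaatttttATTAAAaata
last exon, the fifth site, chr2:119561111-119561140: gtaAATAAActctggcattttaataaggga
Searched on the transcript strand over 40 bases, neither hexamer was found at the first pair. Other hexamers were not searched for, so these sites may hold another signal. Of all 38550 last-exon sites 58.6% had one or the other, and of all 16766 intronic sites 60.8%. A second Rtf1 intronic site, in intron 8 at 119549962, had 11.5% and 2.56% of reads in siCtrl and between 1.35% and 4.98% in the knockdowns, with the highest value in siCtrl. It carries AATAAA 11 bases before the position and 7 A in the next 10 genomic bases.

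**Figure D3:**
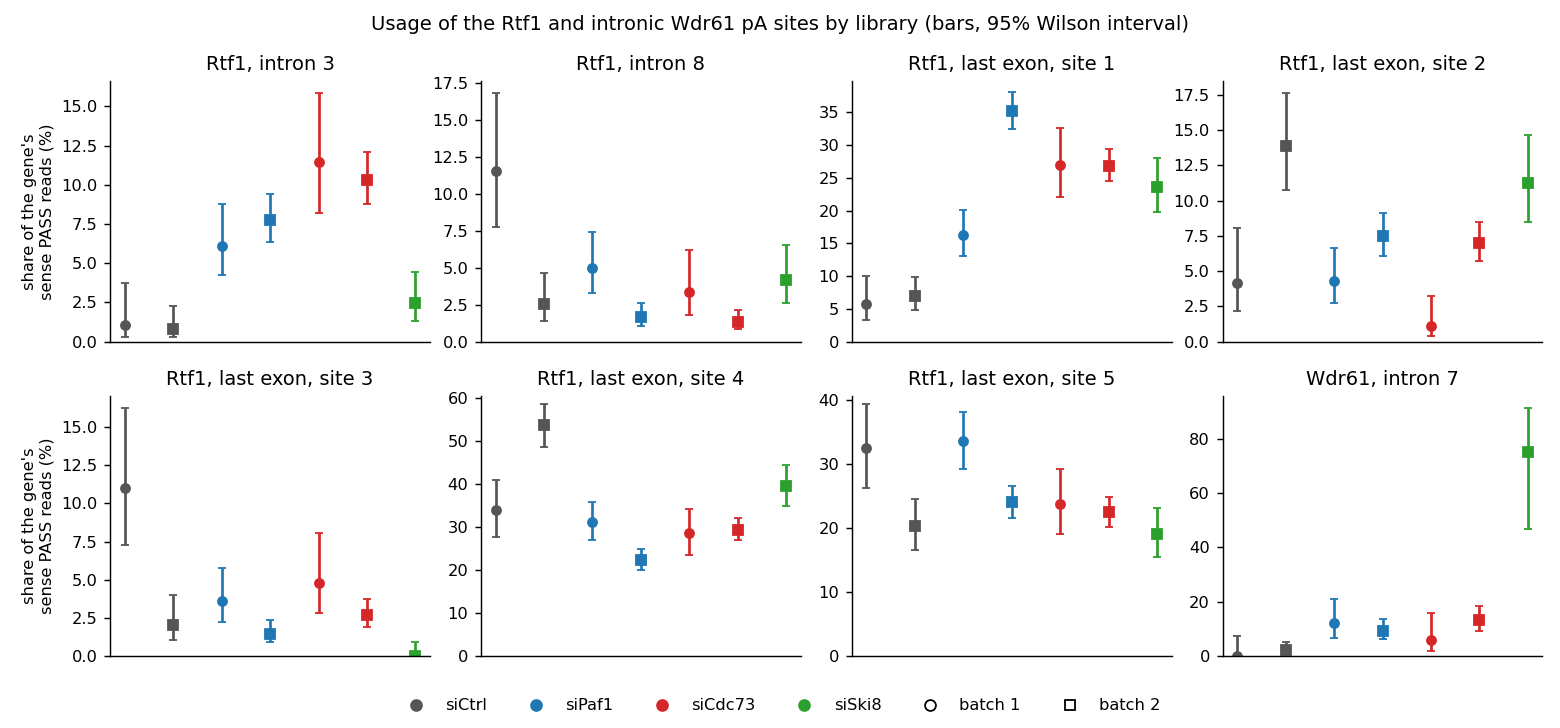
Share of Rtf1 sense reads at each of its 7 sites, in order along the gene, and share of Wdr61 reads at its intronic site, by library with 95% Wilson intervals. The intron 3 site and the first last-exon site are higher in all 4 siPaf1 and siCdc73 libraries than in siCtrl, the fourth last-exon site is lower in those 4 libraries, and the other 4 Rtf1 sites overlap siCtrl.

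The fourth last-exon site, at 119560608, was the most used in siCtrl, with 34.0% and 53.6% of Rtf1 reads. It held 31.2% and 22.4% in siPaf1, 28.5% and 29.4% in siCdc73 and 39.5% in siSki8, so that both siPaf1 and both siCdc73 libraries lay below siCtrl and siSki8 between the siCtrl libraries. Its log2 change in usage was not called, at -1.13 ± 0.50 after siPaf1 (adjusted p = 0.163) and -0.95 ± 0.50 after siCdc73 (adjusted p = 0.300).

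Leaving out libraries changed the Rtf1 calls too. Without siCtrl of batch 2 neither site was called after siPaf1 (intron 3 site 2.71, adjusted p = 0.305; first last-exon site 2.05, adjusted p = 0.281) or after siCdc73 (3.40, adjusted p = 0.0832; 2.19, adjusted p = 0.196). Without siPaf1 of batch 2 neither was called after siPaf1 (2.69, adjusted p = 0.117; 1.55, adjusted p = 0.361).

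Reads at the intron 3 site and the first last-exon site made up part of the rise in Rtf1. At the other 5 sites together Rtf1 had 26.7 and 34.0 CPM in siCtrl, 44.3 and 42.9 in siPaf1, 36.04 and 56.3 in siCdc73 and 34.5 in siSki8. The 4 siPaf1 and siCdc73 libraries were above both siCtrl libraries, though siCdc73 of batch 1 only by 36.04 against 34.03 CPM.

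Wdr61, on the minus strand of chromosome 9, ended mostly at position 54564969 in every library but siSki8, 187 bases after the coding region and past the end of the transcript used to place sites, and had 1 other site, at 54571641 in intron 7 of a gene with 11 exons. The intronic site had 0 of 48 and 5 of 219 reads in siCtrl, 10 of 82 and 25 of 264 in siPaf1, 3 of 51 and 28 of 211 in siCdc73, and 9 of 12 in siSki8. The count of 0 of 48 allows a share of up to 6.25%, and the other shares were 2.28% in siCtrl, 12.2% and 9.47% in siPaf1, 5.88% and 13.3% in siCdc73 and 75.0% in siSki8. After siPaf1 and siCdc73 the log2 change was 2.82 ± 1.03 and 2.73 ± 1.06 (adjusted p = 0.0662 and 0.104, not called). After siSki8 it was 7.22 ± 1.46 (adjusted p = 0.00460, without the batch term 1), which is a fit to 12 reads and was lost without siCtrl of batch 2 (10.2, adjusted p = 0.310). In that library the distal site fell to 3 reads from 48 and 214 in siCtrl, while the intronic site had 1.08 reads per 1000000 (RPM) against 0 and 0.510 in siCtrl. Wdr61 is the target of siSki8. The part of its depletion in this shift, and in the differences from siSki8 below, was not tested. The 30 bases up to each Wdr61 site are given on the minus strand, with the hexamer in capitals, and the intronic site has neither.
intron 7, chr9:54571641-54571670: tacttttttagtaaagtaggttgcttttga
last site, chr9:54564969-54564998: tttaatgtaAATAAAgcattcttaatgcaa
Against siSki8, the usage of both Wdr61 sites differed after siCdc73 by 4.48 ± 1.37 (adjusted p = 0.0426) and after siPaf1 by 4.40 ± 1.37 (adjusted p = 0.0387) on the log2 scale, in opposite directions at the 2 sites.

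**Figure D4:**
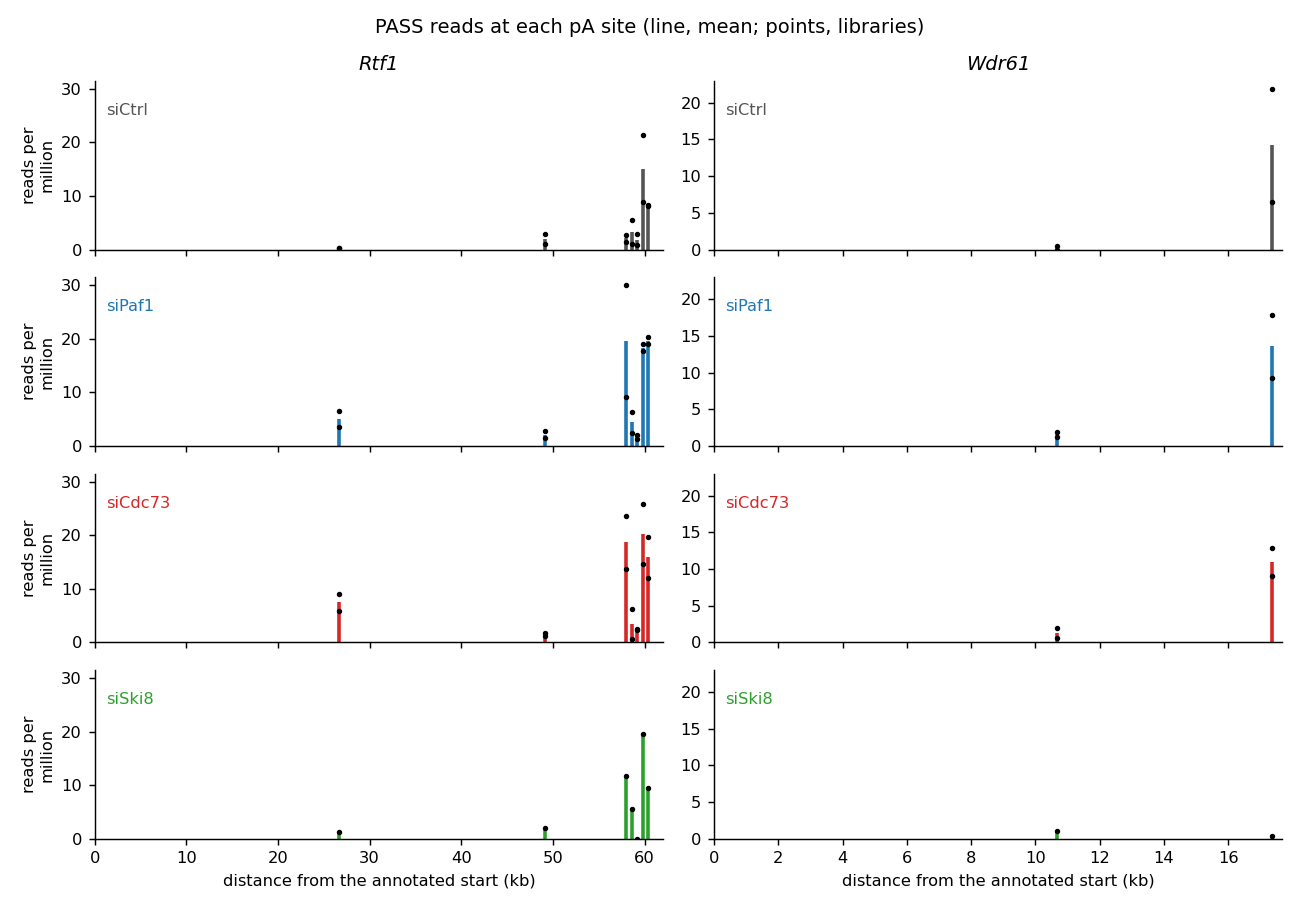
Reads per 1000000 library reads (RPM) at each pA site of Rtf1 (left) and Wdr61 (right) against the distance of the site from the annotated start in kilobases, with 1 row of panels per group; lines are means and points libraries. The Rtf1 intron 3 site near 27 kb is close to 0 in siCtrl and between 3.45 and 9.06 RPM in siPaf1 and siCdc73, and the distal Wdr61 site near 17 kb is almost empty in siSki8.

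Paf1 itself had a site with reads in its own knockdown only. Position 29181908 on the plus strand of chromosome 7 lies in the coding part of exon 11 of 14, although the authors class it with the 3'-most exon, and it had 6 and 6 reads in the siPaf1 libraries and 0 in the other 5. This was 26.1% and 14.0% of the few Paf1 reads left in siPaf1, and the zeros allow shares of up to 2.31% in the smallest of the other libraries and 0.594% in the largest. Cdc73 had the same picture with fewer reads. Position 145517190 on the minus strand of chromosome 1, in the coding part of exon 9 of 17, had 2 and 2 reads in the siCdc73 libraries and 0 in the other 5. Each position lies inside the sequence that, per the study's methods, the respective siRNA targets. This read pattern was not confined to these positions. Of the 59578 sites, 240 had at least 2 reads in both siPaf1 libraries and 0 in the other 5. Of these, 73 had as many reads as the Paf1 site or more. In siCdc73 338 sites had the pattern. The Cdc73 site has the minimum of 2 reads in both libraries, so none of the 338 could have fewer. The windows below are centred on each site in transcript sense, with the pA position in capitals, and both have 3 A in the next 10 bases.
Paf1 exon 11, chr7:29181894-29181923: taagggctatgaggAgaactatttcttcat
Cdc73 exon 9, chr1:145517175-145517204: ttttaggatcctacAttgcgtacaaaacag

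No other tested site was called. Ctr9 ended at 118199891 in 93.6% to 98.7% of its reads in every library, with AATAAA 22 bases before the position, and its other site, upstream at 118199716, had 1.30% to 6.42%. Paf1 ended at 29184402 in 69.6% to 96.1% of its reads, and its distal site, at 29184543, held 23.1% in siCtrl and 18.5% in siCdc73 of batch 1 but at most 6.34% in the other libraries. Leo1 ended mostly at 75314239, and the site upstream of it, at 75314173, held 25.0% and 10.3% in siCtrl, 36.3% and 18.9% in siPaf1, 30% and 20.0% in siCdc73 and 23.3% in siSki8. Within each batch it was higher in the knockdowns, by 0.90 ± 0.80 after siPaf1 and 0.78 ± 0.80 after siCdc73 on the log2 scale, with adjusted p = 0.599 and 0.703. Cdc73 spread its reads over 11 sites in the last exon, none with more than 138 reads over all 7 libraries, and 6 of them were tested with 0 called (0 at an unadjusted p under 0.05 after any knockdown). Upstream antisense reads of Cdc73 numbered 0 and 0 in siCtrl, 2 and 5 in siPaf1, 0 and 3 in siCdc73 and 0 in siSki8.

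The factors that work with Paf1C were read from a list of 30 genes. In RNA-seq 12 of the 30 could be tested. After siPaf1 6 of the 12 were called and all 6 were higher, where 16.3% of all genes were called higher, and the median log2 change of the 12 was 0.67 against 0.02 over all genes. After siCdc73 6 of 12 were called, all 6 higher, against 19.4% of all genes, with a median of 0.72 against -0.02. The most significant were the E2 enzymes for H2B ubiquitination, Ube2a (1.50 ± 0.24, adjusted p = 1.78e-05) and Ube2b (1.46 ± 0.24, adjusted p = 2.19e-05) after siPaf1, and Ube2a (1.63 ± 0.24, adjusted p = 4.16e-06) and the P-TEFb cyclin Ccnt1 (1.31 ± 0.26, adjusted p = 0.000179) after siCdc73. Ccnt1 was not called in 3'READS, where its change had the opposite sign, at -0.18 ± 0.34 after siCdc73 (adjusted p = 0.753) and -0.83 ± 0.34 after siPaf1 (adjusted p = 0.101). After siSki8 0 of 12 were called, against 5.41% of all genes. At an unadjusted p under 0.05 edgeR with the batch term counted 3 of the 12, against 1342 of 6521 genes.

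In 3'READS 28 of the 30 were tested and the picture was mixed. After siPaf1 2 were called, both higher, against 9.74% of all genes called higher, namely Rnf40 (1.32 ± 0.31, adjusted p = 0.00810), which with Rnf20 forms the H2B ubiquitin ligase, and Ube2b (1.02 ± 0.28, adjusted p = 0.0180). After siCdc73 8 were called, 6 higher and 2 lower, against 10.8% of all genes called higher and 1479 of 12579 called lower. The kinase of P-TEFb, Cdk9 (1.44 ± 0.27, adjusted p = 0.00165), and Rnf20 (1.36 ± 0.29, adjusted p = 0.00329) led the first, and Cpsf2, a subunit of the cleavage and polyadenylation factor (-1.89 ± 0.30, adjusted p = 0.000517), and Rdbp, a subunit of the pausing factor NELF (-0.78 ± 0.27, adjusted p = 0.0493), were the 2 lower. The medians of the 28 were 0.13 after siPaf1 and 0.11 after siCdc73 against 0.08 and -0.02 over all genes. After siSki8 0 were called and 0 had an unadjusted p under 0.05, against 1464 of 12579 genes under 0.05. Without the batch term 0 partners were called in any comparison. At an unadjusted p under 0.05 that fit counted 2, 3 and 0 of 12 in RNA-seq after siPaf1, siCdc73 and siSki8, against 1156, 1377 and 361 of 6521 genes. In 3'READS it counted 0, 3 and 0 of 28, against 1703, 1929 and 419 of 12579 genes.

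Genes whose log2 CPM followed each subunit most closely over the 7 libraries, among genes at a mean of 10 CPM or more, are given as a description, since all points share the knockdowns and batches. In RNA-seq they were Pspc1 (r = 0.99) and Ndfip2 (0.98) for Paf1, Pmm2 (0.99) and Zfp652 (0.98) for Cdc73, Senp3 and Tsnax (both over 0.99) for Ctr9, and Msx1 (0.97) and Tcn2 (0.95) for Wdr61. In 3'READS they were Gdpd1 and Srp72 for Leo1 and Golga7 and F730043M19Rik for Rtf1, with r from 0.99 to 1.00. The likeness of the RNA-seq genes was lower in 3'READS, at 0.84 for Pspc1 and Paf1 and at 0.06 and -0.12 for Senp3 and Tsnax with Ctr9.

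The genes beside the subunits on the chromosome were read as well. Paf1 starts 242 bases from Med29, on the other strand, which had 47.5 and 23.3 RPM at pA sites in siCtrl, 61.5 and 25.6 in siPaf1, 37.1 and 23.3 in siCdc73 and 31.6 in siSki8, where the siPaf1 library of batch 1 was the highest. It ends 160 bases before Samd4b, also on the other strand, which was at or below 11.3 RPM throughout. Wdr61 overlaps Dnaja4 on the other strand, at 1.70 to 8.20 RPM. Cdc73 overlaps B3galt2 on the other strand, which had no sense pA site listed. The nearest genes to Ctr9, Leo1 and Rtf1 lie between 6929 and 46489 bases away. The closest of them, Itpka, is on the same strand as Rtf1 and was at or below 1.76 RPM. Both assays keep the strand, and pA sites are listed by strand. The study's methods do not say whether RNA-seq reads were counted by strand, so reads of opposite-strand neighbours may be included there.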

How the data were processed

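Of 66 samples, the 14 libraries of RNA-seq and 3'READS were analysed, and 52 ChIP-seq samples were not analysed here. The authors aligned reads to mm9 with bowtie2 and deposited counts of coding-region reads with RPKM per RefSeq transcript, and counts of PASS reads (reads with at least 2 unaligned T from the tail) per pA site, classed as 3'-most exon, intron, internal exon or upstream antisense. The transcript with the highest mean count stood for a gene, and sense sites were summed per gene. Counts were tested with edgeR 4.0.16 (R 4.3.3; filterByExpr, trimmed mean of M values, quasi-likelihood test, Benjamini-Hochberg over all genes or sites, called at adjusted p under 0.05), without a batch term, as the study's methods have none, and with it. The labels number the batches, and deviations from the group means of same-batch libraries correlated at 0.62 to 0.75 in RNA-seq and 0.43 to 0.61 in 3'READS, so the batch numbers pair the libraries. SEs were derived from the fold change and F. Log2 CPM used a prior count of 2. Site usage was a site-by-knockdown interaction with 1 coefficient per library (site share at least 5%, gene mean at least 20 reads). Both fits were tested on simulated data. Sites were placed on GENCODE (NCBIM37, the authors' build) by the transcript with the longest coding region. DESeq2 1.42.0 and pooled Fisher tests were alternatives. Genes named from the partner list are those with the smallest p, at most 2 per comparison and direction, and for likeness the 2 with the highest r. Members and lists were chosen with earlier results of these data known.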

Additional observations from a re-analysis of the deposited data

Results flagged for a closer look

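Of 13 subunit sites too low for the usage test or antisense, 5 had a library-scaled level above both siCtrl libraries in both libraries of a knockdown. They rest on few reads, were not tested, and the rule compares only 2 libraries with 2. The share of all sites that meet the rule was not computed, so 5 of 13 cannot be called unusual. The Paf1 site at 29181908 had 12 reads in the siPaf1 libraries together and 0 in siCtrl. The Cdc73 site at 145517190 had 4 reads in siCdc73 and 0 in siCtrl. The Cdc73 site at 145454952, in the 3'UTR of the last exon, had 8 reads in siPaf1 (3 and 5) against 2 and 0 in siCtrl. The upstream antisense site of Cdc73 at 145553369 had 7 reads in siPaf1 (2 and 5) and 0 in siCtrl. The Ctr9 site at 118199716, in the 3'UTR, had 160 reads in siCdc73 (32 and 128), or 6.03 and 8.93 reads per 1000000 against 3.39 and 4.90 in siCtrl, while its share of Ctr9 reads was 1.43% and 4.10% against 1.66% and 3.92%.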

How the results depend on the processing

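The batch term, a replicate block here, raised the counts in edgeR. Without it, and with the filter on low counts, edgeR called 0 subunits and 0 subunit sites. With it the counts after siPaf1, siCdc73 and siSki8 were 2, 3 and 1 in RNA-seq, 3, 5 and 1 in 3'READS and 2, 2 and 2 for sites, and between knockdowns 2, 4 and 2 in RNA-seq and 2, 2 and 2 in 3'READS, for siCdc73 against siPaf1, siCdc73 against siSki8 and siPaf1 against siSki8. Scaling by library size alone with the block gave 2, 3 and 1 in RNA-seq and 3, 5 and 1 in 3'READS.

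DESeq2 called 1, 3 and 1 in RNA-seq and 1 after siPaf1 in 3'READS, and with the block 2, 3 and 1 in RNA-seq and 2 and 5 after siPaf1 and siCdc73 in 3'READS. Without a filter on low counts 1 and 1 were called in RNA-seq after siPaf1 and siCdc73. Pooled reads with Fisher's exact test and a change over 1.4-fold gave 2, 3 and 1 in RNA-seq and 4, 5 and 4 in 3'READS, and Fisher's test gave 11, 6 and 3 sites; both ignore the spread between libraries. All sites without the 5% minimum, with the block, gave 3 and 2 after siPaf1 and siCdc73.

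Alternatives added after seeing the data left out each siCtrl, siPaf1 and siCdc73 library in the fit with the block. The RNA-seq counts then ranged from 1 to 3 after siPaf1 and from 3 to 4 after siCdc73 and stayed at 1 after siSki8. The 3'READS counts ranged from 1 to 3, from 2 to 5 and stayed at 1, and the site counts ranged from 0 to 2 in each comparison. For siCdc73 against siSki8 they ranged from 2 to 4 in RNA-seq and from 2 to 5 in 3'READS, and the other differences between knockdowns stayed at 2.

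Changes of sign affected subunits that were not called. In RNA-seq Cdc73 after siSki8 was -0.079 with library size alone and -0.086 with pooled reads, and Cdc73 after siPaf1 was -0.00087 with every transcript tested. In 3'READS Wdr61 after siCdc73 was 0.0071 with the block and 0.062 with DESeq2 and the block, and Wdr61 after siPaf1 was -0.014 without the filter. Paf1 after siSki8 was 0.064 with the block, 0.047 with DESeq2 and the block, 0.082 with library size alone, 0.079 with pooled reads and 0.085 against siCtrl of batch 2. With a library left out and no block, RNA-seq values ranged from -0.10 to 1.26 for Wdr61 after siPaf1, from -0.018 to 1.33 for Wdr61 after siCdc73 and from -0.075 to 0.11 for Cdc73 after siPaf1. The 3'READS values ranged from -0.22 to 0.42 for Cdc73 after siPaf1, from -0.56 to 0.96 for Wdr61 after siPaf1, from -0.67 to 0.86 for Wdr61 after siCdc73 and from -0.13 to 0.088 for Paf1 after siSki8. The cause was not tested.

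Depth limits Cdc73, Wdr61 and Paf1 most, with 3, 12 and 23 reads in their lowest 3'READS libraries.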
